A study of Nannospalax ehrenbergi and Mus musculus with 14 samples.

Results

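The miR-29 family consists of small RNAs that pair with the mRNAs of extracellular matrix proteins, and fibrillar collagens, elastin and fibrillin are its best known targets. A microRNA is cut from a hairpin precursor, which yields a 5p and a 3p arm. In this family the 3p arm is the abundant one and carries the seed, the short stretch near its 5′ end through which targets are recognised. Loss of miR-29 is a known feature of fibrotic tissue, and in skeletal muscle the family is known to rise as myoblasts differentiate. The members were the rows for the 3p and 5p arms of miR-29a, miR-29b and miR-29c that both deposited tables hold. These were 7 of 1326 microRNA rows, namely the 3p arms miR-29a-3p, miR-29b-3p and miR-29c-3p and the 5p arms miR-29a-5p, miR-29b-1-5p, miR-29b-2-5p and miR-29c-5p.

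MicroRNA was sequenced in 14 libraries from animals given 1 injection under the skin of 3-methylcholanthrene (3MCA), a polycyclic hydrocarbon that causes sarcomas at the site. *Spalax*, the blind mole rat, was caught in the field and received 1 mg, and C57BL/6 mice received 200 µg. The groups were the injected side (IS) and the uninjected side (UIS) of 2 *Spalax* with a granuloma taken after 14 and 16 months, of 2 *Spalax* with a fibrosarcoma taken after 18 and 30 months, and of 3 mice with a fibrosarcoma taken after 11, 12 and 14 weeks. Animals are named below by these times, and 1 mouse UIS library is called the unmatched library, since its table column carries an animal number that no label has, while the labelled UIS library of the 14-week mouse has no column under its own number. The UIS is muscle of the same treated animal, so no library came from an untreated one. The ages of the field-caught *Spalax* were estimates that reached from about 2 years to 10 years or more and are not used per library here, and the mice were 3 to 4 months old. Both granuloma-bearing *Spalax* were female, the fibrosarcoma-bearing ones were 1 female and 1 male, and the 3 mice were male, so sex, dose and time cannot be told apart from condition and species.

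The libraries held 2034574 to 13982842 reads on microRNAs, and every IS library was shallower than the UIS libraries of its species. All libraries were labelled as muscle tissue. Of the 6 skeletal muscle microRNAs checked, all were in both tables, and together they took 27.6% to 37.3% of the reads of the UIS libraries but 0.00953% to 3.92% of those of the IS libraries. The IS libraries thus lacked most of the muscle signature that their label names. The 5 microRNAs of fibroblasts and mesenchyme moved the opposite way, from 0.233% to 1.10% of reads at the UIS to 3.22% to 11.8% at the IS, and the 5 of leukocytes from 0.0621% to 0.112% to 0.341% to 2.39%. The part of these shifts in the miR-29 results was not tested. In whole tissue, fewer cells of a type and less of a microRNA per cell cannot be told apart.

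The family comes from 4 hairpin genes at 2 loci of the mouse genome (GRCm38, GENCODE M21). Mir29a (chr6:31062660-31062747) and Mir29b-1 (chr6:31063023-31063093) lie 275 bp apart on the minus strand, Mir29a outside any other annotated gene and Mir29b-1 within an exon of the lincRNA Gm27019. Mir29b-2 (chr1:195037040-195037120) and Mir29c (chr1:195037547-195037634) lie 426 bp apart on the plus strand, within exons of the processed transcript A330023F24Rik and opposite exons of the protein-coding gene Cd46. The hairpins are shown because they define which arms can be traced to which locus. They are written 5′ to 3′ as DNA, and the capitals mark the shared seed of the 3p arm.
Mir29a: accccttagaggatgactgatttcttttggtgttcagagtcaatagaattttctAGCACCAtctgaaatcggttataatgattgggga
Mir29b-1: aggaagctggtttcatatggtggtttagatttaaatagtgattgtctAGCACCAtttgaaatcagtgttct
Mir29b-2: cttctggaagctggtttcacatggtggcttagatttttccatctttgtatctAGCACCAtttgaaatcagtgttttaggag
Mir29c: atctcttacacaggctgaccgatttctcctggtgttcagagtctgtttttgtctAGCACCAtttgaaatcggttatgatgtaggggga

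All 4 hairpins held AGCACCA once, and 13 of 2202 annotated mouse microRNA hairpins (0.59%) held it anywhere on their own strand. Over the 22 bases that begin 1 base before the seed, Mir29b-1 and Mir29b-2 were identical at 22, so miR-29b-3p reads cannot be assigned to a locus. Mir29a and Mir29c matched at 21 of 22, which leaves miR-29a-3p and miR-29c-3p to be told apart by 1 base in that window. The 5p sides differ more, with 22 of 24 identical bases between Mir29b-1 and Mir29b-2 and 17 of 19 between Mir29a and Mir29c. The arms miR-29a-3p, miR-29a-5p and miR-29b-1-5p therefore report on the chromosome 6 pair, and miR-29b-2-5p, miR-29c-3p and miR-29c-5p on the chromosome 1 pair. Reads from *Spalax* were counted under mouse names, and the *Spalax* hairpins were not analysed here.

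At the UIS, miR-29a-3p was the most abundant member in every library. It ranked between 30 and 35 among the 1326 rows by mean level, and it made up 77.7% to 87.6% of the reads of the 3 3p arms. The share of miR-29c-3p was 8.87% to 16.8% and that of miR-29b-3p 3.56% to 7.99%. The 5p arms were minor products, least so for miR-29c, whose 5p arm reached 0.103 to 0.214 times the reads of its 3p arm, against 0.00298 to 0.00718 times for miR-29a. miR-29b-1-5p and miR-29b-2-5p had 30 to 336 and 25 to 40 reads per UIS library.

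miR-29c-3p was far lower at the IS in all 3 conditions. In granuloma its normalized counts (reads divided by a size factor for the library) were 8469 and 8084 at the UIS of the 14-month and 16-month animals and 307 and 423 at their IS. In *Spalax* fibrosarcoma they were 6337 and 6931 at the UIS of the 30-month and 18-month animals and 908 and 846 at the IS. In mice they were 4459, 5593 and 6044 at the UIS (the unmatched library, then the 12-week and 11-week animals) and 279, 529.7 and 198 at the IS (14, 12 and 11 weeks). The same order of animals is kept for the arms that follow. The sides did not overlap in any condition, and the means at the UIS were 22.7-fold, 7.57-fold and 16.0-fold those at the IS. How many of all microRNAs were separated in this way was not counted. Differences between the sides were common. An unadjusted limma p was under 0.05 for 246 and 215 of 447 microRNAs in granuloma and *Spalax* fibrosarcoma, and for 342 of 547 in mice.

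The log2 change of miR-29c-3p, IS against UIS, was -4.52 (SE 0.35, limma adjusted p = 0.000213) in granuloma. It was -2.92 (SE 0.35, limma adjusted p = 0.000995) in *Spalax* fibrosarcoma and -4.11 (SE 0.43, limma adjusted p = 0.000951) in mouse fibrosarcoma. The changes are on the log2(normalized count + 1) scale, and the adjustment is over all 447 *Spalax* or 547 mouse microRNAs tested. miR-29c-3p stayed lower in all 18, 18 and 15 alternatives run for the 3 conditions, with changes from -4.75 to -2.68, from -3.13 to -1.23 and from -4.50 to -1.73. It was past the threshold of 0.05 in each alternative that left out no library. The *Spalax* alternatives include fits without a library of the other condition, where the change cannot move and only its error can.

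Its 5p partner from the same hairpin, miR-29c-5p, fell with it. The normalized counts were 1747 and 1733 against 23.7 and 39.3 in granuloma, and 1123 and 1041 against 86.6 and 58.6 in *Spalax* fibrosarcoma. In mice the UIS libraries had 460.2, 667 and 705 and the IS libraries 24.7, 38.3 and 21.1. No IS library reached the level of any UIS library, and again the share of all microRNAs so separated was not counted. The changes were -5.79, -3.91 and -4.42 (limma adjusted p = 0.000213, 0.000884 and 0.000581). This arm too stayed lower in all alternatives, and past the threshold in each that left out no library.

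miR-29b-2-5p, the neighbour of miR-29c, behaved alike but rests on few reads. Its normalized counts were 56.7 and 47.0 against 2.496 and 5.07 in granuloma, 48.1 and 37.7 against 9.26 and 4.34 in *Spalax* fibrosarcoma, and 47.5, 53.5 and 48.0 against 1.09, 2.89 and 0 in mice. The IS libraries of granuloma held 2 and 4 reads, those of *Spalax* fibrosarcoma 17 and 2, and those of mice 3, 4 and 0. A count of 0 among 3455106 reads allows a share of up to 8.7e-05%, and such limits cover counting error only. The changes were -3.51, -2.56 and -4.65 (limma adjusted p = 0.00312, 0.0138 and 0.00137). In mice the fitted size depended on the scale, from -6.13 with a pseudocount of 0.1 to -3.05 after scaling to library totals. In *Spalax* fibrosarcoma it was -1.005 (limma adjusted p = 0.220) after scaling to totals, and it also missed the threshold without the UIS library of the 30-month animal (-2.39, limma adjusted p = 0.0890) or of the 18-month animal (-2.73, limma adjusted p = 0.0697).

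**Figure D1:**
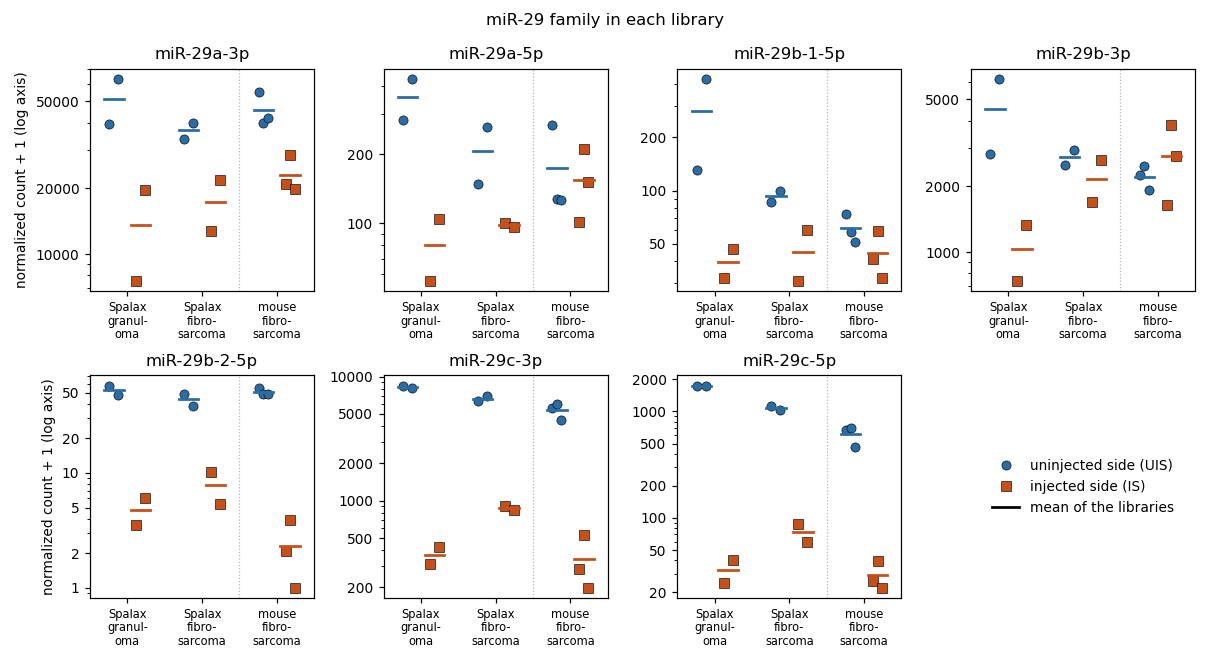
Normalized count plus 1 (log axis) of each miR-29 arm in each library, with UIS libraries as blue circles, IS libraries as orange squares and bars for the mean of 2 *Spalax* or 3 mouse libraries; the mouse table was scaled on its own. miR-29c-3p, miR-29c-5p and miR-29b-2-5p lie lower at the IS with no overlap in every condition, and this order also holds for reads scaled to library totals, while miR-29b-3p overlaps in both fibrosarcomas as plotted. Scaled to totals, miR-29b-3p overlaps in granuloma and lies higher at the IS with no overlap in both fibrosarcomas. The share of all microRNAs without overlap was not counted.

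The arms of the chromosome 6 pair changed less. For miR-29a-3p, the bulk of the family, the normalized counts were 39253 and 63514 at the UIS and 7529.8 and 19637 at the IS of granuloma. They were 33760.1 and 39952 against 12745 and 21925 in *Spalax* fibrosarcoma, and 41859, 55201 and 39667 against 20863, 28277 and 19749 in mice. The sides did not overlap on this scale, and the share of all microRNAs separated in this way was not counted. The log2 changes were -2.04 (limma adjusted p = 0.0165) in granuloma, -1.14 (limma adjusted p = 0.129) in *Spalax* fibrosarcoma and -0.99 (limma adjusted p = 0.0231) in mice, but after scaling to library totals they were -0.19, 0.55 and 1.39, so that the direction turned in both fibrosarcomas.

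miR-29a-5p, the other arm of that hairpin, had normalized counts of 282 and 428 against 54.9 and 104 in granuloma, 148 and 264 against 99.6 and 95.5 in *Spalax* fibrosarcoma, and 125, 269 and 127 against 100.5, 211 and 150.0 in mice. Its changes were -2.19, -1.01 and -0.14, of which the first passed the threshold (limma adjusted p = 0.0130), and after scaling to totals they were -0.36, 0.66 and 2.23. miR-29b-1-5p had 130.4 and 427 against 31.2 and 45.6 in granuloma, and 85.5 and 98.0 against 29.9 and 58.6 in *Spalax* fibrosarcoma. Its changes were -2.61 (limma adjusted p = 0.0162) in granuloma, -1.11 (limma adjusted p = 0.234) in *Spalax* fibrosarcoma and -0.50 (limma adjusted p = 0.341) in mice, and after scaling to totals -0.79, 0.55 and 1.84.

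miR-29b-3p, which both loci can produce, had the smallest change of the 7 arms in *Spalax* fibrosarcoma, and in mice miR-29a-5p did. Its normalized counts were 2821 and 6221 against 738 and 1335 in granuloma, 2507 and 2937 against 1692 and 2647 in *Spalax* fibrosarcoma, and 1930.3, 2247 and 2466 against 1646, 3837 and 2768 in mice. The sides overlapped in both fibrosarcomas. The changes were -2.08 (limma adjusted p = 0.0150) in granuloma, -0.36 (limma adjusted p = 0.616) in *Spalax* fibrosarcoma and 0.24 (limma adjusted p = 0.610) in mice, and after scaling to totals -0.23, 1.33 and 2.62.

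In all, 7 of 7 members were called lower in granuloma, where 22.8% of the microRNAs tested were called lower. In *Spalax* fibrosarcoma 3 of 7 were called lower, against 22.1% of all, and in mouse fibrosarcoma 4 of 7, against 25.6%. The 3 called in *Spalax* fibrosarcoma were the chromosome 1 arms, and in mice miR-29a-3p joined them. Of the 7 granuloma calls, 3 remained without the IS library of the 14-month animal, 3 without the UIS library of the 16-month animal and 3 after scaling to totals, each time the chromosome 1 arms. In these fits the 4 lost calls had adjusted p of 0.0700 to 0.0743, 0.0911 to 0.111 and 0.333 to 0.754. In mice the call of miR-29a-3p was lost with animals entered as a replicate block (-0.99, limma adjusted p = 0.0586), with no filter (limma adjusted p = 0.0543), without the UIS library of the 12-week mouse (limma adjusted p = 0.0899) and without the unmatched UIS library (limma adjusted p = 0.0549). In the block only the mice with both sides set the change, so pairing and fewer libraries cannot be told apart there. After scaling to totals, the mouse members split into 3 called lower, the chromosome 1 arms, and 4 called higher, namely miR-29a-3p (1.39, limma adjusted p = 0.0132), miR-29a-5p (2.23, limma adjusted p = 0.00776), miR-29b-1-5p (1.84, limma adjusted p = 0.0100) and miR-29b-3p (2.62, limma adjusted p = 0.00102). On that scale 5.67% of the mouse microRNAs tested were called lower and 68.2% higher.

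The scale between libraries decides how the changes read. With the size factors built into the deposited values (the deposited factors below), the median change of all microRNAs tested was 0.13 in granuloma, -0.23 in *Spalax* fibrosarcoma and 0.21 in mice. Scaled to library totals it was 1.90, 1.403 and 2.58, and the share of calls that were higher at the IS went from 52.8% to 83.4%, from 40.7% to 82.5% and from 55.7% to 92.3%. Relative to the median, miR-29c-3p lay at -4.64, -2.69 and -4.32 with the deposited factors and at -4.58, -2.63 and -4.30 with totals. miR-29a-3p lay at -2.17, -0.90 and -1.21 with the deposited factors and at -2.10, -0.85 and -1.19 with totals. Both were thus below the median microRNA under either scale, miR-29c-3p with 5.82%, 11.4% and 4.94% of all changes below its own and miR-29a-3p with 20.6%, 33.6% and 30.9%. miR-29b-3p lay close to the median in mice, with 50.6% of changes below its own.

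**Figure D2:**
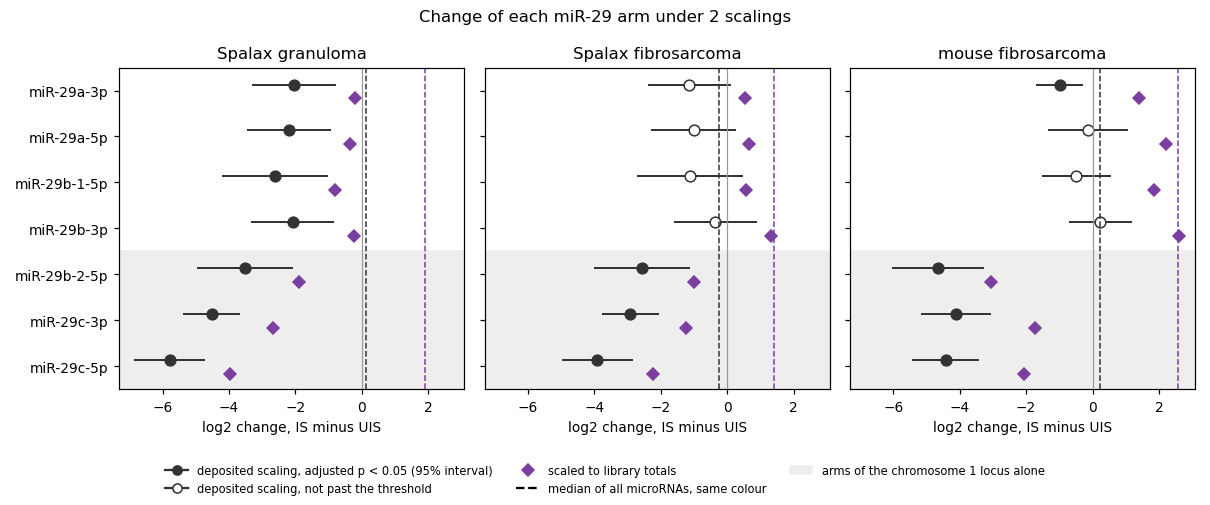
Log2 change, IS minus UIS, of each arm in the 3 conditions: circles with 95% intervals use the deposited scaling (filled where the limma adjusted p is under 0.05), diamonds use scaling to library totals, dashed lines mark the median of all microRNAs under each scale, and the grey band marks the arms of the chromosome 1 locus alone. In the grey band every point lies below 0 under both scales, whereas miR-29a-3p, miR-29a-5p and miR-29b-1-5p move above 0 in both fibrosarcomas when scaled to totals, and miR-29b-3p does so in *Spalax* fibrosarcoma and rises further in mice.

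Ratios within a library do not depend on that scale. The ratio of miR-29c-3p to miR-29a-3p reads was 0.127 to 0.216 in the *Spalax* UIS libraries and 0.0215 to 0.0712 in the *Spalax* IS libraries, and 0.101 to 0.152 against 0.0100 to 0.0187 in mice. It was lower at the IS in 6 of 6 animals with both sides. The mean log2 difference was -2.48 ± 0.82 (SD, n = 6), from -1.398 in the 30-month *Spalax* to -3.93 in the 11-week mouse. The exact two-sided sign-flip permutation test gave p = 0.0312, the smallest that 6 pairs allow, and 0.0703 after adjustment over the 9 ratios and shares examined, so it did not pass the threshold. With 6 pairs a larger difference could not have lowered either value, so the adjusted test cannot decide here or for the other measures at this smallest p. Several of the 9 share a term.

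The 5p arms of the same hairpins gave the same picture. miR-29c-5p had 2.48 to 7.59 times the reads of miR-29a-5p in the UIS libraries and 0.141 to 0.869 times in the IS libraries, so that miR-29c-5p was the more abundant of the pair in all 7 UIS libraries and the less abundant in all 7 IS libraries. The mean log2 difference was -3.69 ± 0.90 (SD, n = 6; exact permutation p = 0.0312, adjusted 0.0703), lower in 6 of 6. The ratio of miR-29b-2-5p to miR-29b-1-5p was lower at the IS in 4 of the 5 pairs with reads of both, and higher by 0.013 on the log2 scale in the 16-month animal (mean -1.91 ± 1.52, SD, n = 5; exact permutation p = 0.125, where 0.0625 is the smallest possible).

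The share of miR-29c-3p among the 3p reads of the family went from 14.4% ± 0.7 to 4.62% ± 1.83 in *Spalax* fibrosarcoma (SD, n = 2), from 13.6% ± 4.5 to 2.78% ± 1.13 in granuloma (SD, n = 2) and from 10.2% ± 2.0 to 1.24% ± 0.38 in mice (SD, n = 3). The IS share was the lower one in 6 of 6 pairs, with a mean log2 difference of -2.39 ± 0.82 (SD, n = 6; exact permutation p = 0.0312, adjusted 0.0703). The share of miR-29b-3p was higher in 5 of 6 pairs (0.83 ± 0.70, SD, n = 6; exact permutation p = 0.0625, adjusted 0.0938), and the 16-month animal was the exception. That of miR-29a-3p was higher in 5 of 6 (0.097 ± 0.072, SD, n = 6; exact permutation p = 0.0625, adjusted 0.0938), with the 12-week mouse the exception. Against miR-29a-3p alone, miR-29b-3p was higher in 5 of 6 pairs by 0.73 ± 0.76 on the log2 scale (SD, n = 6; exact permutation p = 0.0938, adjusted 0.121).

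The 5p arm of the miR-29c hairpin tended to fall further than its 3p arm. The difference did not pass the threshold after adjustment, which 6 pairs at the smallest possible p could not decide. The 5p arm had 0.150 to 0.214 times the reads of the 3p arm in the *Spalax* UIS libraries and 0.0692 to 0.0954 times in the *Spalax* IS libraries. In mice the ratio was 0.103 to 0.119 at the UIS and 0.0723 to 0.107 at the IS, where the sides overlapped. The IS value was the lower one in 6 of 6 pairs (-0.91 ± 0.46, SD, n = 6; exact permutation p = 0.0312, adjusted 0.0703), from -1.42 in the 14-month animal to -0.13 in the 11-week mouse. For miR-29a the 5p to 3p ratio was higher at the IS in 4 of 6 pairs (0.29 ± 0.72, SD, n = 6; exact permutation p = 0.344).

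**Figure D3:**
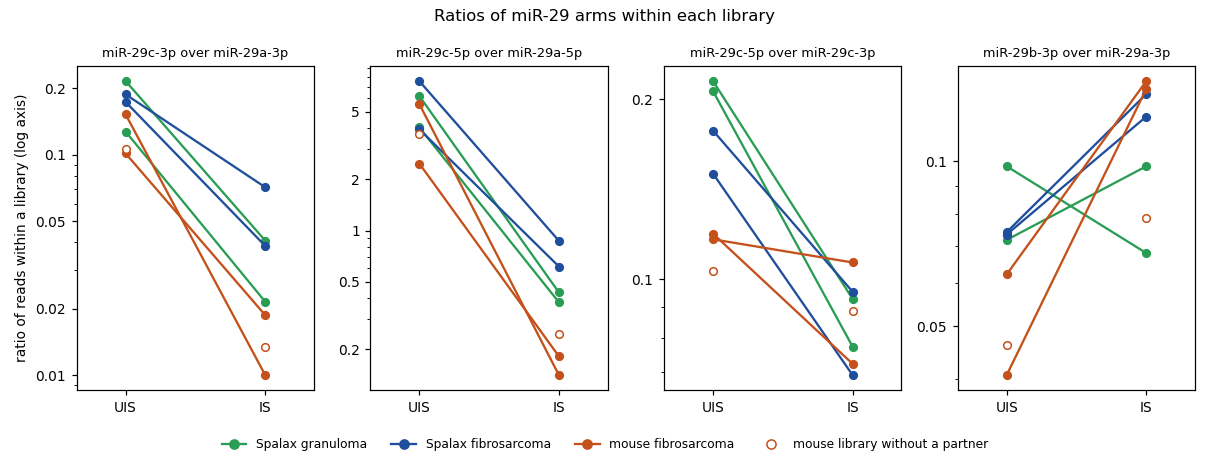
Ratio of reads of 2 miR-29 arms within each library (log axis) at the UIS and the IS, with a line for each of the 6 animals that have both sides and open points for the 2 mouse libraries left unpaired. All 6 lines fall for miR-29c-3p over miR-29a-3p, miR-29c-5p over miR-29a-5p and miR-29c-5p over miR-29c-3p, and 5 of 6 rise for miR-29b-3p over miR-29a-3p.

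Summing the 3p reads of the family removes the effect of reads swapped between near-identical arms. The summed 3p reads could still depend on how reads that match several hairpins were counted. Their normalized counts were 50543 and 77818 against 8574.5 and 21395 in granuloma, 42604 and 49821 (UIS) against 15345 and 25419 (IS) in *Spalax* fibrosarcoma, and 48248, 63041 and 48177 against 22788, 32644 and 22715 in mice. The log2 change was -2.21 (limma adjusted p = 0.00995) in granuloma, -1.22 (limma adjusted p = 0.0929) in *Spalax* fibrosarcoma and -1.04 (limma adjusted p = 0.0188) in mice. Blocking on animals, as a replicate block, left the mouse change short of the threshold (-1.02, limma adjusted p = 0.0527), with only the mice with both sides setting it. After scaling to totals the log2 change was -0.37, 0.46 and 1.34, so that the direction turned in both fibrosarcomas. As a share of all microRNA reads, the 7 members together took 0.322% and 0.512% at the UIS and 0.195% and 0.482% at the IS of granuloma, 0.310% and 0.365% against 0.358% and 0.581% in *Spalax* fibrosarcoma, and 0.183% to 0.347% against 0.597% to 0.807% in mice. The mouse tumors held more of their reads in the family than the mouse UIS, and at the same time less of them in miR-29c, with 51.5 to 130 RPM of miR-29c-3p (reads scaled to the library total) against 225 to 303 RPM.

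Granuloma is benign and fibrosarcoma malignant, and the *Spalax* libraries allow their changes to be compared. All 7 differences of the change (granuloma minus fibrosarcoma) were negative, from -0.90 for miR-29a-3p to -1.88 for miR-29c-5p, beside a median of -0.10 for all microRNAs. How many of all microRNAs had a negative difference was not counted. Each difference has a part from the IS and a part from the UIS. The UIS part was the larger for miR-29a-5p and miR-29b-1-5p and the smaller for the other arms. Of the members, 0 of 7 passed the threshold, where 3.8% of the 447 microRNAs did. The closest were miR-29c-3p (-1.60, 95% interval -2.76 to -0.43, limma adjusted p = 0.0949) and miR-29c-5p (-1.88, 95% interval -3.36 to -0.40, limma adjusted p = 0.118). The 95% intervals of the other 5 members included 0, and with 2 animals a condition they do not show equal changes.

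Between the IS libraries alone, 1 of 7 members passed the threshold, where 18.8% of the 447 microRNAs did, 15 lower and 69 higher in granuloma. This member was miR-29c-3p, lower in granuloma (307 and 423) than in *Spalax* fibrosarcoma (908 and 846) by 1.28 on the log2 scale (limma adjusted p = 0.0427). The call was lost in 12 of 16 alternatives, among them both edgeR fits (TMM factors, edgeR adjusted p = 0.120) and each fit without 1 of the 8 libraries, with the change between -1.51 and -1.05 throughout. Between the UIS libraries 0 of 7 members passed, and 0% of all microRNAs were called by limma, with 5 of 447 at an unadjusted p under 0.05. edgeR with TMM factors and DESeq2 also called 0, with 7 and 10 at an unadjusted p under 0.05. The UIS differences of the members ran from 0.27 for miR-29b-2-5p to 1.36 for miR-29b-1-5p, the latter with the library of the 16-month animal at 427 against 85.5 to 130.4 in the other three.

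Of the mouse libraries, 5 were also scaled together with the *Spalax* libraries by the authors, and the species were compared on that common scale alone. Of the 607 microRNAs tested at the UIS, 39.7% differed between the species, 75 higher in *Spalax* and 166 lower. There, 2 of 7 members were called higher in *Spalax* (4 libraries) than in mice (2 libraries). They were miR-29c-5p, with 1041 to 1747 in *Spalax* and 503 and 572 in mice (1.352, limma adjusted p = 0.0154), and miR-29b-1-5p, with 85.5 to 427 against 46.8 and 54.9 (1.52, limma adjusted p = 0.0456). The call of miR-29b-1-5p was lost with a pseudocount of 0.1 (limma adjusted p = 0.0507) and with no filter (limma adjusted p = 0.0598). The other 5 had differences between 0.23 and 0.87, and none passed.

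At the IS of fibrosarcoma the chromosome 1 arms stood higher in *Spalax* (2 libraries) than in mice (3 libraries). On the common scale miR-29c-3p had 846 and 908 in *Spalax* and 176 to 441 in mice (1.73, limma adjusted p = 0.00332). miR-29c-5p had 58.6 and 86.6 against 18.8 to 31.9 (1.58, limma adjusted p = 0.00621), and miR-29b-2-5p 4.34 and 9.26 against 0 to 2.40 (1.99, limma adjusted p = 0.0136). These 3 of 7 passed the threshold in all 8 alternatives. In the main fit 53.9% of the 607 microRNAs passed, 86 higher in *Spalax* and 241 lower. The other 4 members lay between -0.36 and 0.22, with miR-29b-1-5p turning from 0.22 to -0.21 after scaling to totals. Scaling to totals moved the share of these calls that were higher in *Spalax* from 26.3% to 15.6% over all microRNAs, and the median from -0.65 to -1.09. For the change itself, 0 of 7 differences between the species passed, where 26% of all microRNAs did, and the largest were 1.89 for miR-29b-2-5p (limma adjusted p = 0.138) and 1.19 for miR-29c-3p (95% interval -0.09 to 2.47, limma adjusted p = 0.164). The difference for miR-29c-5p was 0.57 and turned to -0.14 after scaling to totals, where the median of all microRNAs moved from -0.06 to -0.96 and the share of calls that were higher in *Spalax* from 22.2% to 4.89%.

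The ratio of the miR-29c arms at the UIS also differed in level between species, since the 5p to 3p ratio was 0.150 to 0.214 in the 4 *Spalax* and 0.103 to 0.119 in the 3 mouse libraries. The groups did not overlap, and the exact permutation test gave p = 0.0571, the smallest that 4 against 3 libraries allow (adjusted 0.103 over 9 ratios and shares). In the other direction, miR-29b-2-5p had 0.110 to 0.563 times the reads of miR-29b-1-5p in *Spalax* and 0.736 to 0.946 times in mice (exact permutation p = 0.0571, adjusted 0.103). Arms were counted against mouse names, so a base that differs in *Spalax* could move these ratios, which was not tested.

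The microRNAs whose pattern was most like miR-29a-3p and most like miR-29c-3p were not the same. Over the 14 libraries, with the mean of each species removed, log2 normalized counts of miR-29a-3p correlated best among 396 candidates with miR-3068-5p (r = 0.905), miR-187-3p (0.881), miR-30d-5p (0.880), miR-22-5p (0.875) and miR-190b-5p (0.875). For miR-29c-3p they were miR-26a-5p (r = 0.991), miR-101c (0.974), miR-101a-3p (0.973), miR-30c-5p (0.973) and miR-30e-3p (0.973). Within the family miR-29c-3p correlated at 0.991 with miR-29c-5p and 0.977 with miR-29b-2-5p, at 0.874 with miR-29a-3p and at 0.511 with miR-29b-3p. The correlations of miR-29a-3p did not separate the loci. They were 0.890 with miR-29b-1-5p and 0.857 with miR-29a-5p, and 0.887 with miR-29c-5p and 0.808 with miR-29b-2-5p. The libraries share side, depth and scale, so these values describe likeness only. miR-101a-3p and miR-101c are near-identical copies with almost equal changes (-3.13 and -3.13 in granuloma), and their reads are uncertain between them.

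Other microRNAs known for a part in fibrosis moved at the same time. They were listed with earlier results of these data known, so their counts are no independent support. Those that restrain fibrosis took 34.9% to 49.9% of the reads of the UIS libraries and 6.53% to 14.2% at the IS. Of 12 microRNAs that are known to restrain matrix or TGF-β pathway genes (the miR-30 and miR-26 families, miR-24-3p, miR-101a-3p, miR-133a-3p and miR-200), 11 were tested. With the deposited scaling 10 were called lower in granuloma, 9 in *Spalax* fibrosarcoma and 10 in mice, against 22.8%, 22.1% and 25.6% of all microRNAs, with median changes of -3.09, -2.24 and -1.95. After scaling to totals 6, 3 and 3 were called lower, against 11.2%, 9.17% and 5.67% of all, and 1, 1 and 2 were called higher. The medians of the list were then -1.25, -0.55 and 0.44, so that the sign turned in mice, beside medians of all microRNAs of 1.90, 1.403 and 2.58. miR-26a-5p, the closest to miR-29c-3p in pattern, changed by -3.11, -2.24 and -3.02 (limma adjusted p = 0.000342, 0.00148 and 0.000581), and after scaling to totals by -1.26, -0.55 and -0.63. miR-133a-3p, a muscle microRNA that is also on the muscle list, had the largest change of the list, -11.69, -13.24 and -8.44.

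Of 4 microRNAs known to promote fibrosis, 3 were called higher in granuloma, 1 in *Spalax* fibrosarcoma and 3 in mice, where 25.5%, 15.2% and 32.2% of all microRNAs were. After scaling to totals 4 of 4 were called higher in each condition, but so were 56.4%, 43.2% and 68.2% of all. miR-21a-5p, a microRNA induced in activated fibroblasts and in many tumors, rose by 3.63, 3.63 and 3.04 (limma adjusted p = 0.000820, 0.00106 and 0.000581). miR-199a-5p and miR-214-3p, which come from 1 mesenchymal transcript, rose by 3.61 and 3.12 in granuloma and by 2.07 and 2.36 in mice. In *Spalax* fibrosarcoma their changes were 0.80 and 0.93 (limma adjusted p = 0.144 and 0.126), which passed the threshold after scaling to totals (2.49 and 2.62).

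**Figure D4:**
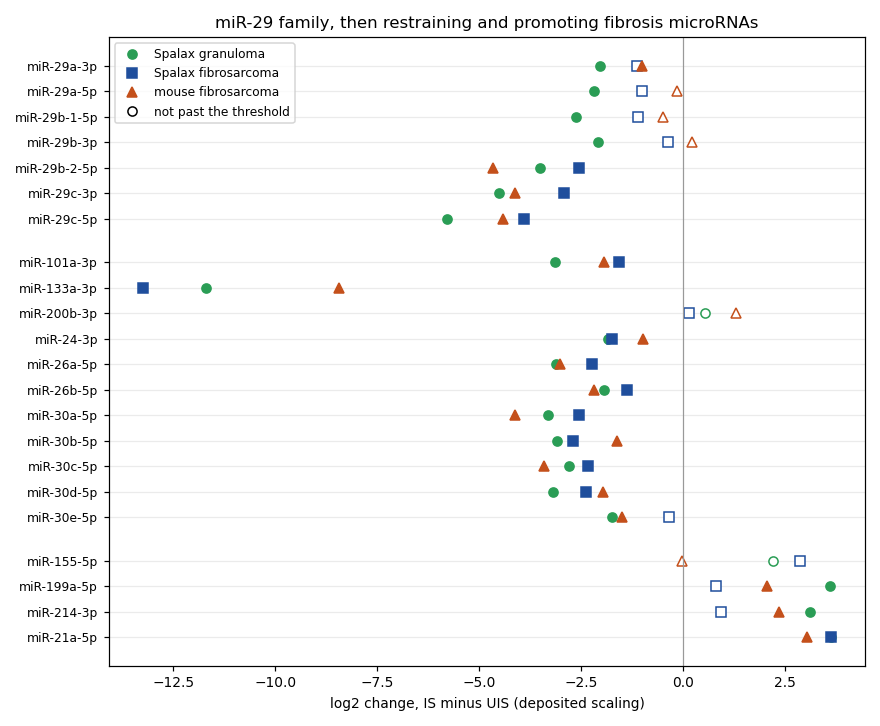
Log2 change, IS minus UIS with the deposited scaling, of the 7 miR-29 arms, the 11 restraining and the 4 promoting fibrosis microRNAs in Spalax granuloma (circles), Spalax fibrosarcoma (squares) and mouse fibrosarcoma (triangles), open where the limma adjusted p is not under 0.05; the granuloma point of miR-21a-5p lies behind that of Spalax fibrosarcoma at 3.63. The chromosome 1 arms of miR-29 lie between -2.56 and -5.79, lower than all restraining microRNAs but miR-133a-3p in granuloma, and the chromosome 6 arms and miR-29b-3p lie between -2.61 and 0.24; after scaling to totals these 4 lie above 0 in both fibrosarcomas, and miR-24-3p, miR-26b-5p, miR-30b-5p, miR-30d-5p, miR-30e-5p, miR-101a-3p and miR-155-5p turn direction in at least 1 condition.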

How the data were processed

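Small RNA libraries (TruSeq) were sequenced from *Spalax* and mouse tissue. Per the study's methods, the authors trimmed adaptors, mapped the microRNA reads with mirDeep and analysed them with DESeq2. The submitters' processing notes for the series name TopHat 1.4.1, HTSeq, DESeq and GRCm38, and which of these tools made the microRNA tables is not given in the sources used here. The deposited signal is the read count divided by a size factor per library, in 1 table for *Spalax* (with 5 of the mouse libraries) and 1 for mouse. That factor was estimated here for each library from the spacing of its low nonzero values, so that these came out whole. Reads were recovered by multiplying by the estimate, and 100% of values were then whole within 0.1. Depth was 2034574 to 13982842 reads. Values were compared as log2(value + 1) with limma 3.58.1 (trend, R 4.3.3) and Benjamini-Hochberg adjustment at 0.05. Fits within *Spalax* used the 8 *Spalax* libraries and all microRNAs that reached 10 in 2 or more of them. Fits within mice used the 6 libraries of the mouse table and all microRNAs that reached 10 in 3 or more. Fits between species used the 13 libraries of the *Spalax* table and all microRNAs that reached 10 in 2 or more. Alternatives were edgeR 4.0.16 and DESeq2 1.42.0 on the recovered reads, scaling to totals, other filters and pseudocounts, and leaving out libraries; the fits were tested on simulated data.

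Groups came from the labels. Both sides of an animal pair the libraries. Over the microRNAs tested, the difference between 2 animals of a condition at the IS was correlated with that at the UIS. The correlation was 0.0933 in granuloma, 0.00405 in *Spalax* fibrosarcoma and 0.0426 in mice, where only those with both sides entered. The mouse UIS column whose animal number matches no label was used as an unpaired replicate of its group. Ratios within a library were compared over 6 pairs with an exact sign-flip permutation test. Members were all 7 miR-29 rows; the members and the lists were chosen with earlier results of these data known, the named microRNAs were the members, the listed fibrosis microRNAs and the 5 most correlated with miR-29a-3p, and the likeness to miR-29c-3p, the ratios to miR-29a and miR-29b-1, and the species difference of the change were added after seeing the data. Near-identical arms were told apart by the authors' counting, whose rule for reads that match several hairpins is not given in the sources used here.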

Additional observations from a re-analysis of the deposited data

How the results depend on the processing

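Of 992 alternative values for the members and their 3p total, 933 kept direction and side of the threshold, 37 lost the threshold, 3 gained it and 19 turned. miR-29c-3p and miR-29c-5p kept both in all 3 conditions. Scaling to library totals gave changes of 0.46 (*Spalax* fibrosarcoma), -0.37 (granuloma) and 1.34 (mice) for the 3p total. In *Spalax* fibrosarcoma and mice it gave 0.55 and 1.39 for miR-29a-3p, 0.66 and 2.23 for miR-29a-5p and 0.55 and 1.84 for miR-29b-1-5p, and in *Spalax* fibrosarcoma 1.33 for miR-29b-3p. It also gave -0.21 for miR-29b-1-5p between the IS of the species and -0.14 for the species difference of the miR-29c-5p change, 3 members lower in granuloma, 6, 3 and 3 restraining microRNAs lower in granuloma, *Spalax* fibrosarcoma and mice, and 4 promoting ones higher in *Spalax* fibrosarcoma. These turns follow from the shift of the median of all microRNAs; which scale is right was not tested. Between the 2 *Spalax* lesions at the IS, 0 members were called with edgeR under both factors, without a trend and with size factors from other than muscle microRNAs, and 1 at the UIS between species with no filter or a pseudocount of 0.1.

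Blocking on animals (a replicate block) gave the mouse 3p total a change of -1.02, past the threshold no longer, and the mouse miR-29a-3p call was also lost. Only the mice with both sides set these blocked changes. The block cannot be fitted to levels compared between lesions or species, where each animal is in 1 group. It was fitted to the difference of the change between the *Spalax* lesions, where 0 of 7 members passed, and not to that between species.

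Without 1 library at a time, the 3p total lay between -2.87 and -1.55 in granuloma. In *Spalax* fibrosarcoma it lay between -1.59 and -0.86, in mice between -1.21 and -0.91, and it ranged from -1.20 to 0.12 between the IS of the lesions. The total was called in *Spalax* fibrosarcoma without either granuloma IS library (limma adjusted p = 0.0407 and 0.0415). The granuloma count ran from 3 to 7 and the count between IS was 0 throughout. Between IS, miR-29a-3p ran from -1.15 to 0.23, miR-29a-5p from -0.82 to 0.0901 and miR-29b-1-5p from -0.62 to 0.32. In mice miR-29a-5p ran from -0.40 to 0.22 and miR-29b-3p from -0.0457 to 0.56. The share of miR-29c-3p ran from -2.60 to -2.09 (exact permutation p = 0.0625, the smallest for 5 pairs). A lone library left in a group was assumed to vary like the other groups. A change between groups that keep all their libraries cannot move in these fits, so such values among the 992 kept their direction by design. Arms with few reads, miR-29b-2-5p above all, are limited by depth.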
